A study of Homo sapiens with 12 samples.

Results

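The 49 genes described here code for protein subunits of the mitochondrial respiratory chain and of ATP synthase. They comprise 23 subunits of complex I, 4 of complex II, 6 of complex III, 8 of complex IV and 8 of ATP synthase (complex V). They were taken by name from a list of nuclear genes, by a rule that uses no measured value, out of the 26357 genes whose names were alike in the 4 deposited tables. RNA was sequenced from the HMLE line, human mammary epithelial cells that were immortalised. HMLE-Twist cells, labelled with an EMT phenotype (epithelial to mesenchymal transition), were set against HMLE-pBp cells, labelled nonEMT. Each line was grown with DMSO (mock) or with 0.2 uM salinomycin, a potassium ionophore, for 24 hours, and each of the 4 groups held 3 biological replicates, 12 libraries in all. HMLE-Twist is named for the transcription factor TWIST1, and the promoter and construct behind it were not looked up here. Each line stands alone for its phenotype, so an effect of TWIST1 and any other difference between these lines cannot be told apart.

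The libraries held 17.9 to 26.7 megareads recovered from the deposited values. The targeted gene followed the labels, since TWIST1 stood at 712 ± 337 FPKM (mean ± SD, n = 3) in mock HMLE-Twist and at 2.50 ± 0.0355 in mock HMLE-pBp. FPKM counts fragments scaled to transcript length and library size. All 8 epithelial markers were lower and all 8 mesenchymal markers higher in HMLE-Twist under either treatment. CDH1, the epithelial cadherin, stood at 0.0592 ± 0.0334 FPKM in mock HMLE-Twist and 167 ± 5.57 in mock HMLE-pBp (n = 3 each). Of the leukocyte markers only CD14 and of the endothelial markers only KDR had enough reads to be tested. In mock cells CD14 stood at 1.26 and 22.8 FPKM (HMLE-Twist, HMLE-pBp) and KDR at 0.821 and 0.0242, while PTPRC, the pan-leukocyte marker, was at 0.0144 and 0. These RNA levels come from cultures in bulk, where fewer cells of a type and less RNA per cell cannot be told apart.

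Complexes I and II take electrons from NADH and succinate, complex III passes them to cytochrome c, and complex IV hands them to oxygen. Complexes I, III and IV pump protons across the inner mitochondrial membrane, and ATP synthase uses their return to make ATP. Most subunits are nuclear genes whose promoters are known for sites of NRF1, of ETS factors such as GABPA, and of YY1, while a smaller number are coded in mitochondrial DNA. The mitochondrially encoded subunits were not analysed here.

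The promoters of 41 members were found in the RefSeq table (GRCh38.p14; 250 bases before and 50 after the annotated start). NDUFA4, NDUFB9, SDHC, UQCRB, CYC1, COX6C, ATP5B and ATP5D had no entry. Each of 5 letter patterns is given beside its share in all 27305 promoters of the same length, with both strands searched. The NRF1 pattern (GCGC, any base, then TGCGC) was in 8 of 41 member promoters (19.5%) and in 6.28% of all promoters. The ETS pattern CCGGAAG was in 12 (29.3%, against 10.7%), and the YY1 pattern AAGATGGCG in 6 (14.6%, against 1.85%). The CREB/ATF pattern TGACGTCA was in 3 (7.32%, against 1.98%) and CCAAT, read by NF-Y, in 12 (29.3%, against 35.7%). None of the patterns contains another, and a match is a description of letters, not of a bound site. The sequences below are the 150 bases before the annotated start, 5′ to 3′ on the gene's strand, with matches to any of these patterns in capitals. The first 4 belong to members whose RNA fell with salinomycin in HMLE-Twist, SDHA has the NRF1 pattern 3 times and was not called, and COX6A1 is a complex IV gene that was lower in HMLE-Twist.
ATP5C1: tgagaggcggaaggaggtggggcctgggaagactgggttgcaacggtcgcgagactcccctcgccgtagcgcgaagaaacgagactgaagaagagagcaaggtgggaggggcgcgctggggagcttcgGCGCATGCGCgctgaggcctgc
SDHD: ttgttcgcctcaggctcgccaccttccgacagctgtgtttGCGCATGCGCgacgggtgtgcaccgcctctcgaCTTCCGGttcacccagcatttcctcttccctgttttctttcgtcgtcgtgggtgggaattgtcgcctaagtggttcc
NDUFB4: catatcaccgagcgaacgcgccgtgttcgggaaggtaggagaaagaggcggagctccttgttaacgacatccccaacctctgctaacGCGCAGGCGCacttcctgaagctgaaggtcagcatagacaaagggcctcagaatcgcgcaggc
ATP5O: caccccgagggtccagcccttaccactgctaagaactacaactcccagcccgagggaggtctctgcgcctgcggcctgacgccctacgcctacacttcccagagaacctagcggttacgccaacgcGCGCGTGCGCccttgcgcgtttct
SDHA: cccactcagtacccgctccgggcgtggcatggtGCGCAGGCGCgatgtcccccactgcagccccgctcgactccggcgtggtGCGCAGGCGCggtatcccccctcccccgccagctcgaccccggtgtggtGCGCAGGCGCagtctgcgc
COX6A1: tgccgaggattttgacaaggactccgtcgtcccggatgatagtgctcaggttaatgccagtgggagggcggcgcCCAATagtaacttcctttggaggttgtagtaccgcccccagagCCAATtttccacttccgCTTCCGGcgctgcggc
They lie at chr10:7788027-7788176 (ATP5C1, now ATP5F1C, plus strand), chr11:112086723-112086872 (SDHD, plus), chr3:120596186-120596335 (NDUFB4, plus), chr21:33915805-33915954 (ATP5O, now ATP5PO, minus), chr5:218170-218319 (SDHA, plus) and chr12:120437963-120438112 (COX6A1, plus). In SDHD the NRF1 match is followed by an ETS match on the other strand, and COX6A1 holds 2 NF-Y matches and an ETS match. No complex IV promoter of the 7 in the table held the NRF1 pattern, and 4 of 7 held the ETS pattern.

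All 48 tested members were expressed in both lines, and 47 of them exceeded a mean of 10 FPKM in every group. The exception was NDUFA5, an accessory subunit of complex I, at 12.0 FPKM in mock HMLE-Twist and 6.97 ± 0.908 in mock HMLE-pBp (SD, n = 3). COX5B was not tested, because its reads could be recovered only up to a whole multiple. Over all 12 libraries ATP5B, the catalytic beta subunit of ATP synthase, had the highest level at a mean of 501 FPKM. It was followed by COX7C (448), NDUFB9 (438), COX6A1 (295), COX4I1 (282) and ATP5A1 (247), the alpha subunit. The order changed with the line. NDUFB9, an accessory subunit of the complex I membrane arm, led in mock HMLE-pBp at 714 ± 76.0 FPKM, and ATP5B led in mock HMLE-Twist at 570 ± 15.1 (SD, n = 3 each). COX7C at 392 ± 64.8 FPKM and ATP5A1 at 288 ± 13.4 came next in mock HMLE-Twist, and COX7C in its 3 libraries (323, 404 and 451) ran above all 3 of ATP5A1 (282, 303 and 278). Levels between genes depend on the length behind them: UQCRB had a mean of 31.2 FPKM over all libraries, with its reads divided by 5223 bases. Many of these genes have processed pseudogenes, and how shared reads were counted is not known here.

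With salinomycin part of the set fell in HMLE-Twist. Of the 48 tested members 17 fell and 0 rose at an adjusted p under 0.05 (limma on log2(FPKM + 1), Benjamini-Hochberg over 11980 genes). Over all genes tested 26.4% were called, 13.5% lower and 12.8% higher. The median log2 difference, salinomycin minus mock, was -0.16 over the members and -0.01 over all genes tested, and 39 of 48 members had a negative difference. By complex 9 of 23 fell in complex I, 2 of 4 in complex II, 1 of 6 in complex III, 1 of 7 in complex IV and 4 of 8 in ATP synthase. The 3 treated libraries lay below all 3 mock libraries for 19 members and above them for 0, against 21.1% and 19.1% of all genes tested. With the replicate number as a block within the line, the 17 kept their calls and COX6C, COX7C, NDUFA2, NDUFA5 and NDUFB1 were lower as well, 22 in all. In that fit 2497 of all 11980 genes tested were lower and 2345 higher. Without salinomycin HMLE-Twist replicate 1 the number that fell was 10, and without any other library it was 13 to 22. The calls over all genes moved as well. Without that replicate 1079 of 11951 genes tested were lower, against 1621 of 11980 in the reported fit. Without mock HMLE-Twist replicate 1, where 22 members fell, 1618 of 11928 were lower.

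**Figure D1:**
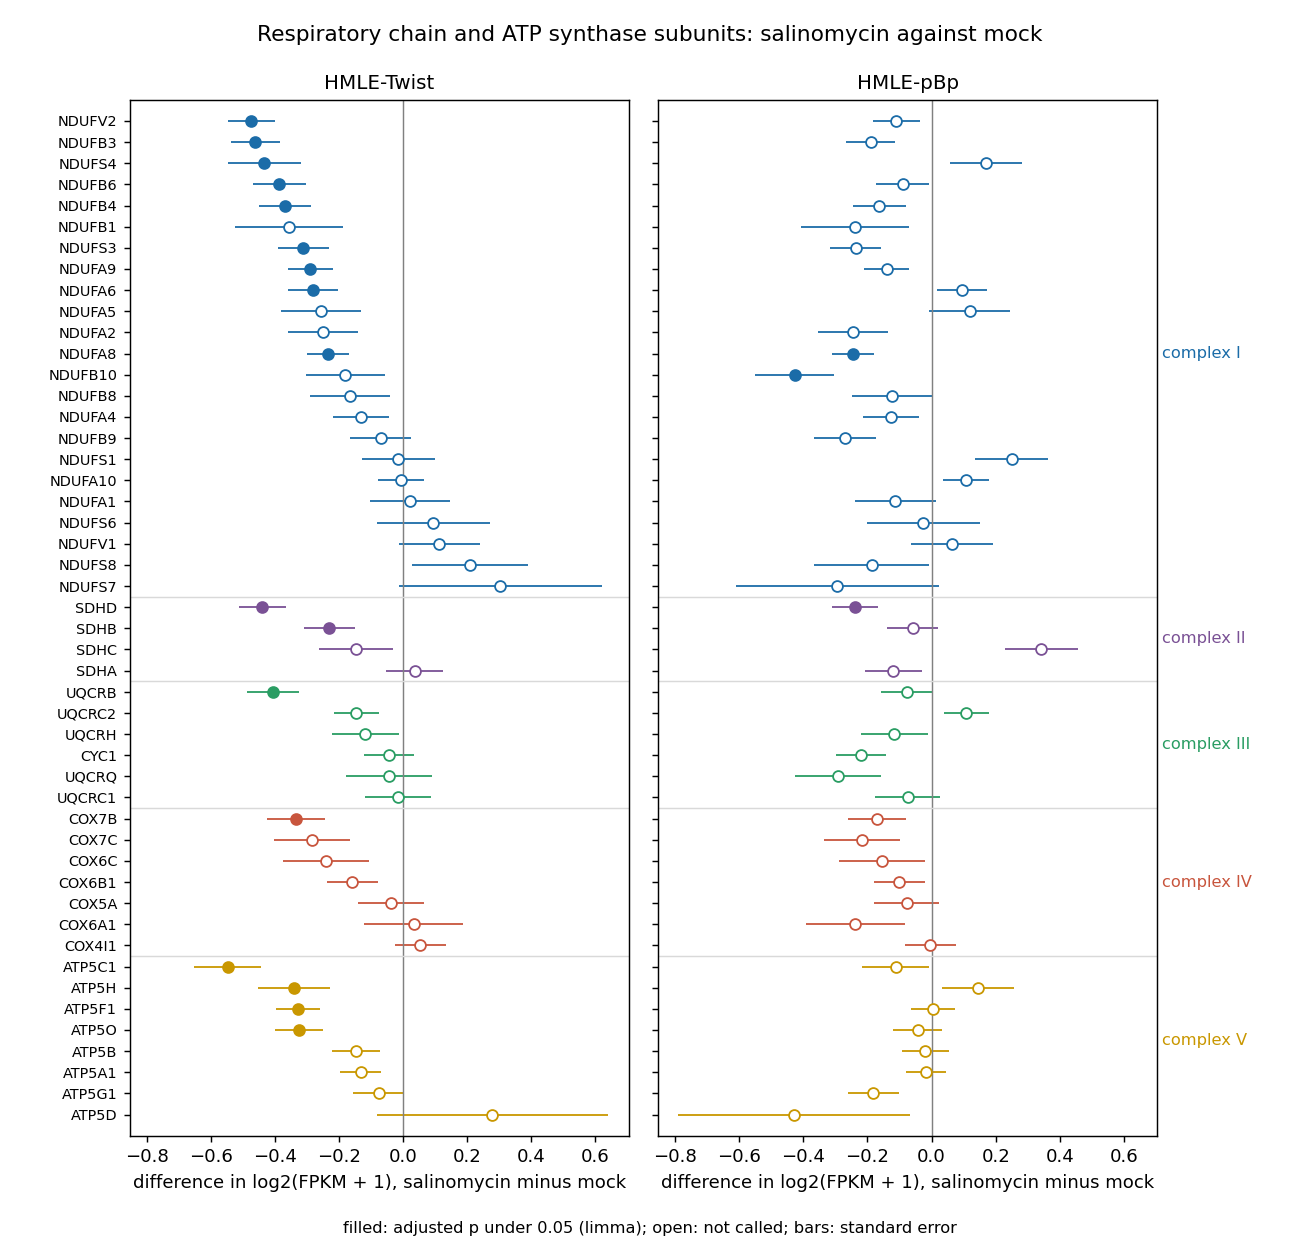
Difference in log2(FPKM + 1), salinomycin minus mock, of the 48 tested members (rows, by complex) in HMLE-Twist (left) and HMLE-pBp (right), with standard errors; filled points passed an adjusted p of 0.05. In HMLE-Twist 17 filled points lie left of 0 and none right of it, and in HMLE-pBp 3 do.

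The largest fall was in ATP5C1, the gamma subunit that turns in the centre of ATP synthase. Its 3 mock libraries read 236, 233 and 229 FPKM and its treated ones 162, 157 and 159. All treated libraries were below all mock ones, with a log2 difference of -0.55 ± 0.10 (SE; adjusted p = 0.00253, limma). Subunits of the peripheral stalk, which holds the catalytic head still, fell with it. ATP5O, the OSCP subunit at the top of the stalk, went from 216, 254 and 238 FPKM to 185, 191 and 189 (-0.32 ± 0.08, adjusted p = 0.00812). ATP5F1, subunit b of the stalk, went from 127, 120 and 122 FPKM to 99.4, 97.2 and 96.8 (-0.33 ± 0.07, adjusted p = 0.00431). ATP5H, subunit d, was at 168, 205 and 197 against 127, 170 and 155 FPKM, with 1 treated library above the lowest mock one (-0.34 ± 0.11, adjusted p = 0.0411). Without 1 library at a time ATP5H kept this call in 4 of 12 cases, and it kept it under 7 of 11 other settings. The catalytic subunits did not pass the test: ATP5A1 was at -0.13 ± 0.06 (adjusted p = 0.155) and ATP5B at -0.15 ± 0.07 (adjusted p = 0.169). For these 2 genes too, all treated libraries lay below all mock ones.

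In complex I the genes that fell came from the NADH-binding tip, the arm in the matrix and the membrane arm. NDUFV2, an iron-sulfur core subunit at the tip, read 125, 110 and 107 FPKM in mock and 84.8, 81.1 and 79.6 in treated HMLE-Twist (-0.47 ± 0.07, adjusted p = 0.000774). NDUFS4, an accessory subunit beside it whose loss causes Leigh syndrome, read 67.3, 64.0 and 64.6 against 45.8, 50.04 and 48.6 FPKM (-0.43 ± 0.11, adjusted p = 0.0141). Neither gene's groups overlapped. The membrane arm gave NDUFB3, at 68.2, 62.2 and 67.7 against 47.8, 45.5 and 49.7 FPKM (-0.46 ± 0.08, adjusted p = 0.00107). NDUFB6 of the same arm read 78.0, 84.4 and 84.9 against 60.0, 62.4 and 66.1 FPKM (-0.39 ± 0.08, adjusted p = 0.0047). NDUFB4 read 40.8, 45.2 and 45.1 against 31.8, 33.5 and 35.6 FPKM (-0.37 ± 0.08, adjusted p = 0.00583). Again the groups of these 3 genes stood apart. NDUFA6, NDUFA8, NDUFA9 and NDUFS3 also fell, with differences from -0.31 (NDUFS3) to -0.23 (NDUFA8). The core subunits NDUFV1 (0.11 ± 0.13, adjusted p = 0.566) and NDUFS1 (-0.01 ± 0.11, adjusted p = 0.949) were not called.

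In complex II 2 of 4 members fell, while complexes III and IV contributed 1 fall each. SDHD, a membrane anchor of succinate dehydrogenase, read 88.97, 79.4 and 74.8 FPKM in mock and 60.5, 58.8 and 58.9 in treated HMLE-Twist (-0.44 ± 0.07, adjusted p = 0.00109). SDHB, its iron-sulfur subunit, sat at the threshold (-0.23 ± 0.08, adjusted p = 0.0499). This call was lost without any 1 of the 6 HMLE-Twist libraries, with differences from -0.28 to -0.20, and without 4 of the 6 HMLE-pBp libraries. SDHA, the flavoprotein that oxidises succinate, did not pass at 0.04 ± 0.09 (adjusted p = 0.814). UQCRB, a small subunit of complex III, read 47.1, 48.9 and 50.2 against 35.4, 36.2 and 38.2 FPKM (-0.41 ± 0.08, adjusted p = 0.00338). Neither UQCRC1, a core protein of complex III (-0.02 ± 0.10, adjusted p = 0.936), nor CYC1, cytochrome c1 (-0.04 ± 0.08, adjusted p = 0.739), was called. COX7B was the complex IV gene that fell (-0.33 ± 0.09, adjusted p = 0.0171). COX4I1 and COX5A, also of complex IV, stood at 0.05 ± 0.08 and -0.04 ± 0.10 (adjusted p = 0.669 and 0.833).

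Short transcripts differed between libraries of a group, and 27 of the 48 members are under 1000 bases. For 786 other genes under 1000 bases, the median deviation from the group mean ran from -0.16 (mock HMLE-Twist replicate 1) to 0.16 (mock HMLE-Twist replicate 3) on the log2 scale. Of the members, 32 of 48 had their lowest mock HMLE-Twist value in replicate 1. Those other short genes had a median salinomycin difference of -0.05 in HMLE-Twist and -0.15 in HMLE-pBp. Among members of 1000 bases and over 8 of 21 fell in HMLE-Twist, and among shorter ones 9 of 27. With each library's trend on length removed, 13 of the 17 kept their call in HMLE-Twist. The 4 that did not were NDUFA8, NDUFS4, SDHB and ATP5H.

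Some members varied too much between replicates for a call. NDUFS7, the core subunit with the last iron-sulfur cluster before ubiquinone, read 22.7, 37.1 and 61.7 FPKM in mock HMLE-Twist (0.30 ± 0.32, adjusted p = 0.529). ATP5D, the delta subunit of the central stalk, read 24.1, 33.8 and 63.9 FPKM in the same libraries (0.28 ± 0.36, adjusted p = 0.625). The lowest reading of either gene was in replicate 1 and the highest in replicate 3. COX5B showed the same spread, with 60.8, 92.3 and 156 FPKM. With no gene left out, COX5B gave 0.10 ± 0.31 in HMLE-Twist (adjusted p = 0.854) and -0.28 ± 0.31 in HMLE-pBp (adjusted p = 0.562).

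In HMLE-pBp cells 3 of the 48 members fell with salinomycin and 0 rose, where 9.36% of all genes tested were called lower and 9.55% higher. The median difference was -0.11 over the members and -0.01 over all genes, with 38 of 48 negative. With the length trend removed these medians were -0.025 and -0.0096. Members under 1000 bases had a median of -0.17 (25 of 27 negative), near the -0.15 of the 786 other short genes (510 negative). For members of 1000 bases and over it was -0.06 (13 of 21 negative). NDUFB10, of the complex I membrane arm, read 88.8, 92.2 and 102 FPKM in mock and 61.3, 67.8 and 81.8 in treated cells (-0.43 ± 0.12, adjusted p = 0.0313). NDUFA8, a small accessory subunit of complex I, read 68.0, 67.7 and 64.3 against 56.0, 57.6 and 54.7 FPKM (-0.25 ± 0.06, adjusted p = 0.0214). SDHD read 60.5, 59.4 and 58.7 against 49.9, 52.0 and 49.0 FPKM (-0.24 ± 0.07, adjusted p = 0.0397). Each of the 3 had all treated libraries below all mock ones. So did 14 members in all, with 1 above, against 21.2% and 20.2% of all genes tested. NDUFA8 and SDHD fell in both lines, 15 members were called in HMLE-Twist and not in HMLE-pBp, and 30 in neither. In HMLE-pBp ATP5C1 was at -0.11 ± 0.10 (adjusted p = 0.479), ATP5B at -0.02 ± 0.07 (adjusted p = 0.884) and ATP5A1 at -0.02 ± 0.06 (adjusted p = 0.881).

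The HMLE-pBp count depended on the fit and on single libraries. Same-numbered libraries of a line deviated together. With the replicate number as a block within each line, 2316 of all 11980 genes tested were lower and 2066 higher. The fit without a block had 1121 and 1144. Of the members 10 were lower and 2 higher with the block. The added ones that were lower were NDUFA2, NDUFB3, NDUFB9, NDUFS3, UQCRQ, CYC1 and COX7C. The 2 that were higher were SDHC, the other membrane anchor of complex II (0.34, adjusted p = 0.00432 with the block), and NDUFS1 (0.25, adjusted p = 0.0276 with the block). Without 1 library the number lower ran from 0 (without mock HMLE-pBp replicate 2, or salinomycin HMLE-pBp replicate 1) to 7 (without mock HMLE-Twist replicate 1). It was 1 without mock HMLE-pBp replicate 1 or 3 or salinomycin HMLE-pBp replicate 2. With the length trend removed, NDUFB10 alone was lower.

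Whether the response differed between the lines was tested directly, as the salinomycin effect in HMLE-Twist minus that in HMLE-pBp. It was more negative in HMLE-Twist for 4 of 48 members and more positive for 0, against 6.59% and 6.95% of all genes tested, a share near that background. NDUFS4 differed most, at -0.60 ± 0.16 (adjusted p = 0.0293). The call of NDUFS4 was lost without 5 of the 12 libraries and under TPM scaling. Its treated HMLE-pBp libraries read 81.2, 57.9 and 60.8 FPKM over a mock of 61.8, 53.5 and 60.7, so replicate 1 stood above the other 2. The other 3 were NDUFA6, a matrix-arm subunit of complex I (-0.38 ± 0.11, adjusted p = 0.0427), NDUFV2 (-0.36 ± 0.10, adjusted p = 0.0402) and ATP5F1 (-0.33 ± 0.10, adjusted p = 0.0427). NDUFA6 read 47.5, 48.3 and 53.3 FPKM in mock and 40.05, 38.9 and 43.2 in treated HMLE-Twist, against 31.8, 34.0 and 36.8 and then 36.8, 36.3 and 36.5 in HMLE-pBp. NDUFV2 read 75.9, 75.3 and 72.4 FPKM in mock and 71.8, 66.5 and 68.5 in treated HMLE-pBp. ATP5F1 read 96.1, 86.5 and 87.2 against 95.7, 87.9 and 87.1 FPKM there. Without 1 library at a time, NDUFA6 kept its call in 1 of 12 cases, NDUFV2 in 2 and ATP5F1 in 4. NDUFV2 and ATP5F1 also lost it under TPM scaling, and NDUFV2 with the length trend removed. For ATP5C1, with the largest fall in HMLE-Twist, the difference of responses did not pass (-0.43 ± 0.15, adjusted p = 0.0709).

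With the replicate block within each line, 1857 of all 11980 genes tested were more negative in HMLE-Twist and 2033 more positive. Of the members 12 differed in that fit, all more negative in HMLE-Twist. They were the 4 above with NDUFA5, NDUFB3, NDUFB6, SDHC, UQCRB, UQCRC2, ATP5C1 and ATP5H. ATP5C1 then had an adjusted p of 0.00407. Without the block the count was 0 when mock HMLE-Twist replicate 2, salinomycin HMLE-Twist replicate 1 or 3, or mock HMLE-pBp replicate 2 or 3 was left out. It was 1 without salinomycin HMLE-pBp replicate 1 or 2, 2 without salinomycin HMLE-Twist replicate 2, and 3 to 6 without any of the rest. Under TPM scaling it was 1, and 62.6% of all genes called in this contrast were more positive, against 51.3% in the fit reported and 45.9% under TMM scaling.

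**Figure D2:**
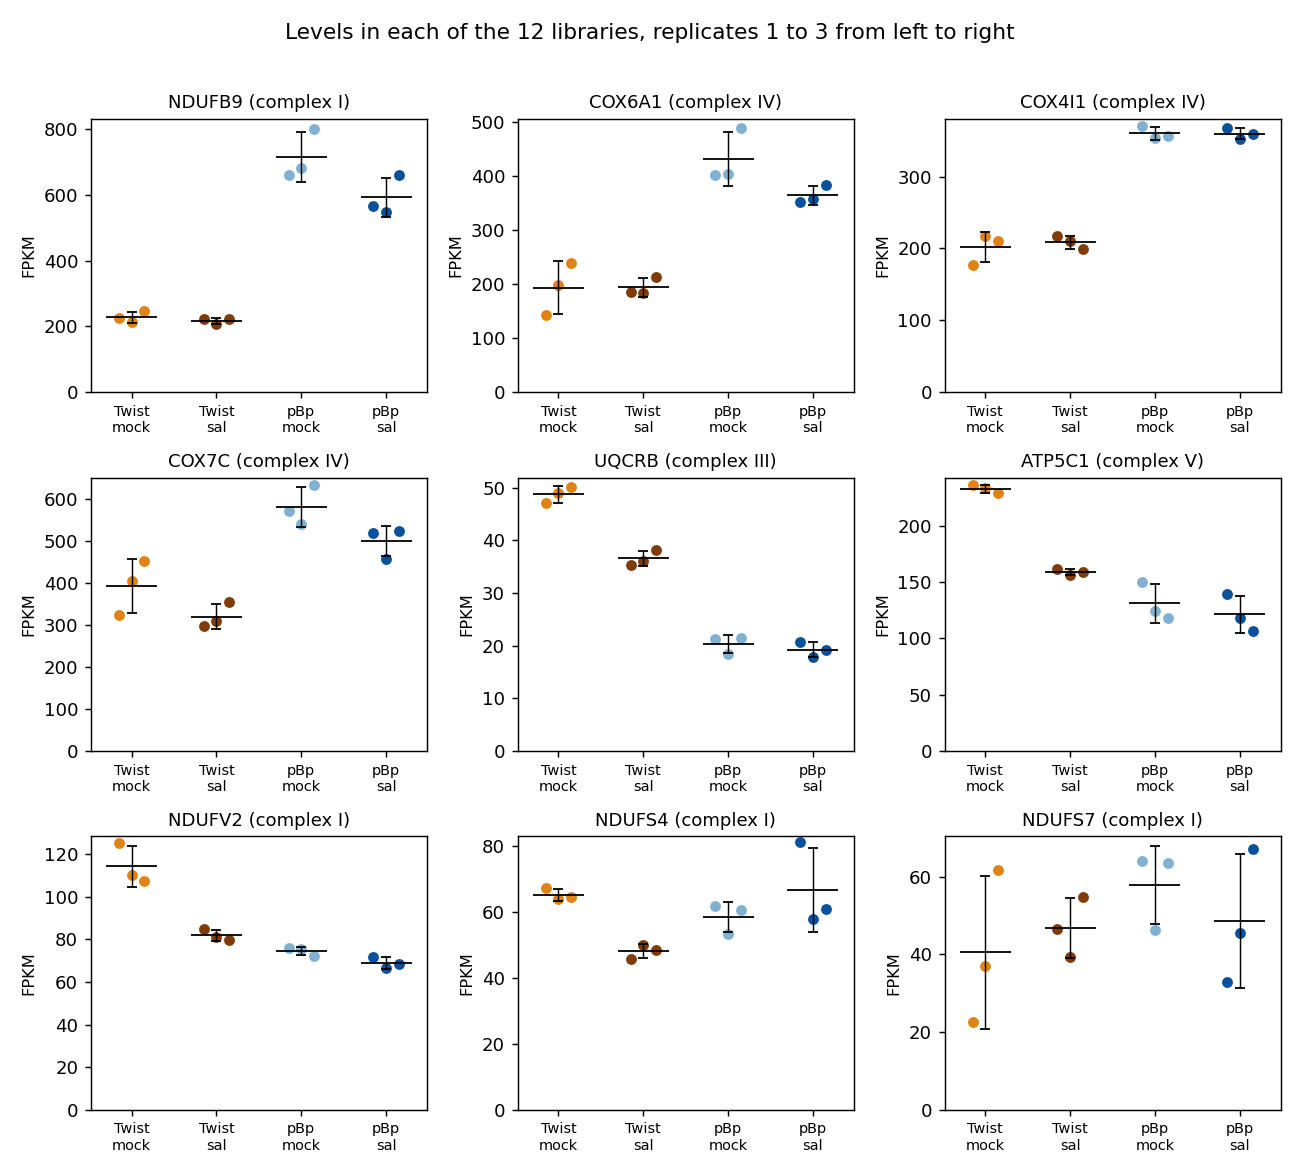
FPKM of 9 members in each of the 12 libraries (points, replicates 1 to 3 from left to right), with the mean (line) and SD (bar) of each group of 3; "sal" is salinomycin, and every axis starts at 0. NDUFB9, COX6A1 and COX4I1 are lower in all HMLE-Twist than in all HMLE-pBp libraries, UQCRB is higher, ATP5C1, NDUFV2 and NDUFS4 drop with salinomycin in HMLE-Twist, and NDUFS7 spreads widely within groups.

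More members were called between the lines than between treatments. In mock cells 17 of the 48 members were higher in HMLE-Twist than in HMLE-pBp and 12 were lower, where 73.3% of all genes tested were called, 36.1% higher and 37.2% lower. Under salinomycin 9 were higher and 14 lower, against 63.4% of all genes called, 31.4% higher and 32% lower. The shares of the members called were near or below those of all genes. The 2 line contrasts share no library: 8 members were higher in both, 10 lower in both, 0 called in opposite directions and 14 called in neither. Groups did not overlap for 19 members higher and 13 lower under mock (36.8% and 37.1% of all genes), and for 15 and 14 under salinomycin (35.1% and 34.8%).

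**Figure D3:**
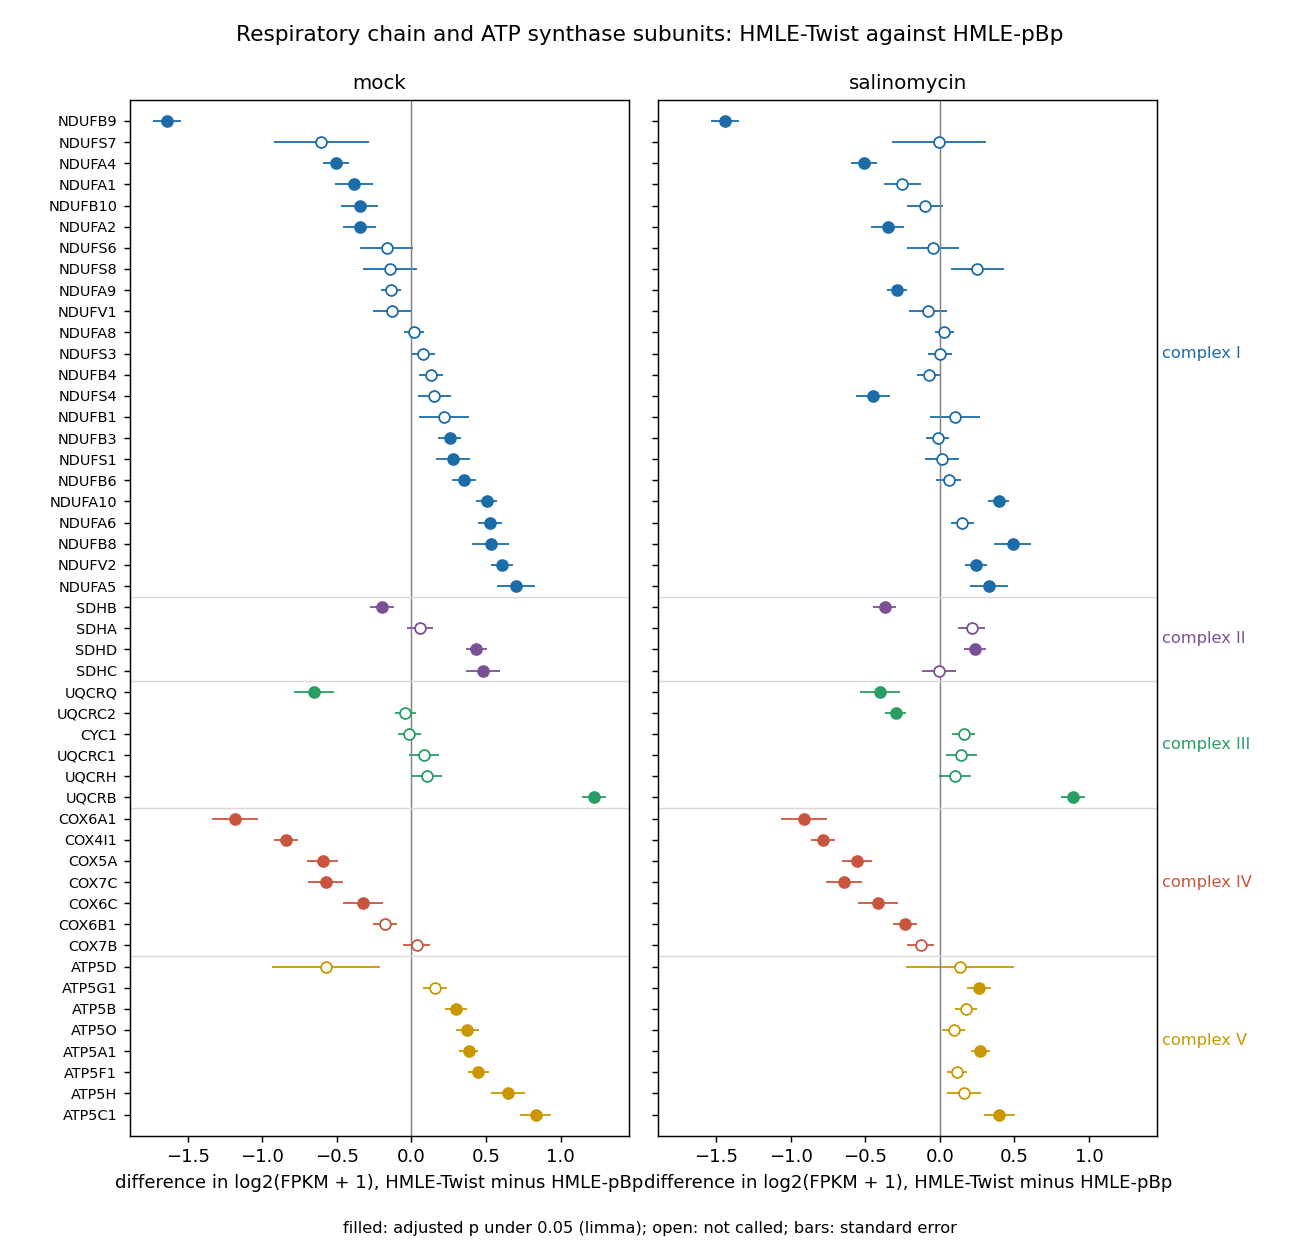
Difference in log2(FPKM + 1), HMLE-Twist minus HMLE-pBp, of the 48 tested members (rows, by complex) under mock (left) and salinomycin (right), with standard errors; filled points passed an adjusted p of 0.05. Filled points of complex IV all lie left of 0 and those of complex V all right of it, in both panels.

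In complexes IV and V the called members all lay in 1 direction. In complex IV 5 of 7 members were lower in HMLE-Twist under mock and 6 of 7 under salinomycin, and 0 were higher. In ATP synthase 6 of 8 were higher under mock and 3 of 8 under salinomycin, the latter a share near the 31.4% of all genes, and 0 were lower. The median difference was -0.58 and -0.56 in complex IV (mock, salinomycin) and 0.38 and 0.17 in ATP synthase, where the median of all genes tested was -0.0025 and 0.011. The 786 other genes under 1000 bases had medians of -0.20 and -0.04, and the part of transcript length in these differences was not tested beyond the fit with the length trend removed, where COX6A1, COX4I1, COX5A, COX6B1, COX6C and COX7C were lower under mock. In that fit the same 6 ATP synthase genes were higher under mock, while under salinomycin ATP5A1 was higher and ATP5C1 (0.27, adjusted p = 0.0697) and ATP5G1 (0.15, adjusted p = 0.206) lost their calls. Complex I was mixed, with 8 higher and 5 lower of 23 under mock and 4 and 5 under salinomycin. Complex II had 2 higher and 1 lower of 4 under mock, and complex III 1 higher and 1 lower of 6. Summed over the tested members, complex IV stood at 1333 ± 186 FPKM in mock HMLE-Twist and 2007 ± 133 in mock HMLE-pBp, and ATP synthase at 1808 ± 68.1 and 1379 ± 73.2 (SD, n = 3 each). No HMLE-Twist library reached the lowest HMLE-pBp one for complex IV (highest 1492, lowest 1890 in mock), and no HMLE-pBp library reached the lowest HMLE-Twist one for ATP synthase (highest 1462, lowest 1731). The complex I sum was also lower in HMLE-Twist, at 1628 ± 141 against 2080 ± 125 FPKM in mock cells. It did not overlap under mock (highest 1768, lowest 1967) or under salinomycin (highest 1505, lowest 1754). The gap in NDUFB9 alone, whose values are given below, was about as large as the gap in this sum. Over the 23 complex I members the median log2 difference was 0.08 under mock and -0.01 under salinomycin, with 13 and 11 positive. The lower sum is thus not a trait of most complex I members. The sums of complexes II and III overlapped under mock.

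**Figure D4:**
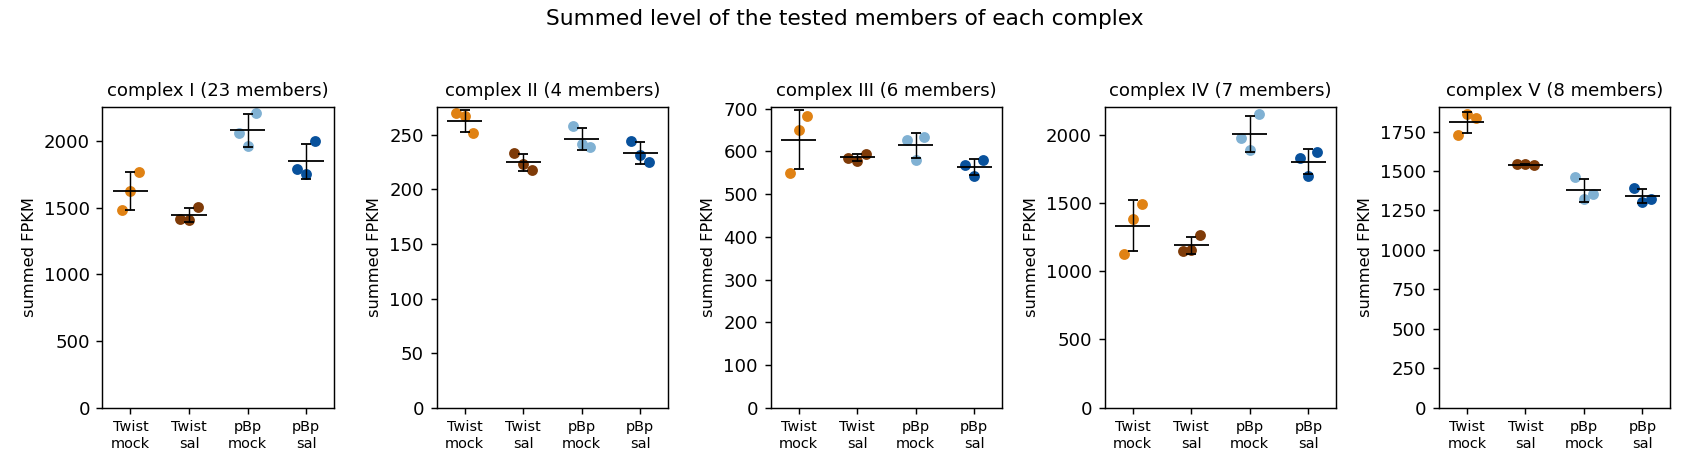
Summed FPKM of the tested members of each complex in the 12 libraries (points), with the mean (line) and SD (bar) of each group of 3; every axis starts at 0. In mock cells complex I is 1628 in HMLE-Twist and 2080 in HMLE-pBp, complex IV is 1333 and 2007, and complex V is 1808 and 1379. NDUFB9 alone differs between the lines by about as much as the complex I sum.

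With salinomycin the sum for ATP synthase was 1541 ± 3.03 FPKM in HMLE-Twist, where all 3 libraries lay below the 3 mock ones, and 1341 ± 46.5 in HMLE-pBp, where the groups overlapped. Complex II stood at 263 ± 9.81 FPKM in mock and 225 ± 7.83 in treated HMLE-Twist, also without overlap. For complex IV the sum was 1190 ± 64.1 FPKM in treated HMLE-Twist and overlapped with mock. In HMLE-pBp complex IV stood at 2007 ± 133 FPKM in mock and 1802 ± 91.4 in treated cells, without overlap (lowest mock 1890, highest treated 1875). Complex III in HMLE-pBp did not overlap either, by a narrow margin (lowest mock 581, highest treated 579). Summed over all 48, treated libraries lay below all mock ones in both lines, in HMLE-pBp narrowly (6001 against 6003). The 48 members together made up 1.56% of the summed FPKM of all genes in mock HMLE-Twist, 1.39% in treated HMLE-Twist, 1.71% in mock HMLE-pBp and 1.57% in treated HMLE-pBp.

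NDUFB9 showed the largest difference between the lines. In mock cells it read 226, 213 and 246 FPKM in HMLE-Twist and 661, 680 and 801 in HMLE-pBp (-1.64 ± 0.10, adjusted p = 1.16e-08). Under salinomycin it read 224, 206 and 221 against 567, 549 and 659 FPKM (-1.44 ± 0.10, adjusted p = 5.03e-08). The lines stood far apart in either treatment. Within complex I, NDUFA4 was also lower under both, at -0.50 ± 0.09 and -0.51 ± 0.09 (adjusted p = 0.000199 and 0.000242); it is named for complex I, though later work places it in complex IV. Against these, NDUFB8 was higher in HMLE-Twist under both (0.53 ± 0.12 and 0.49 ± 0.12, adjusted p = 0.002 and 0.00434), as was NDUFA5 (0.70 ± 0.13 and 0.33 ± 0.13, adjusted p = 0.000278 and 0.0377). The salinomycin call of NDUFA5 was lost without 5 of the 12 libraries and with no filter on low values. NDUFV2 was higher by 0.61 ± 0.07 under mock (adjusted p = 1.08e-05) and by 0.24 ± 0.07 under salinomycin (adjusted p = 0.0121), where the length trend removed left 0.11 (adjusted p = 0.414).

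Among complex IV genes the ubiquitous isoforms COX6A1 and COX4I1 differed most. COX6A1 read 142, 197 and 239 FPKM in mock HMLE-Twist and 401, 403 and 488 in mock HMLE-pBp (-1.18 ± 0.15, adjusted p = 2.03e-05). COX4I1 read 178, 217 and 210 against 371, 354 and 357 FPKM (-0.84 ± 0.08, adjusted p = 9.6e-07). Their differences under salinomycin were -0.91 ± 0.15 (adjusted p = 0.00024) and -0.78 ± 0.08 (adjusted p = 2.45e-06). COX5A was lower in mock cells (-0.60 ± 0.10, adjusted p = 0.000209) and COX7C likewise (-0.58 ± 0.12, adjusted p = 0.000837). Under salinomycin they stood at -0.56 ± 0.10 (adjusted p = 0.000467) and -0.64 ± 0.12 (adjusted p = 0.000473). COX6C passed more narrowly (mock -0.32 ± 0.13, adjusted p = 0.0444), and its mock call was lost without any of 5 libraries. COX7B was called in neither contrast. COX6B1 passed under salinomycin (-0.23 ± 0.08, adjusted p = 0.0236), a call lost without 4 of the 12 libraries, and not under mock (adjusted p = 0.0673).

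In ATP synthase the rotor gene ATP5C1 led again. In mock cells it was higher by 0.83 ± 0.10 (adjusted p = 1.41e-05), with HMLE-pBp at 150, 124 and 118 FPKM. Under salinomycin the difference was 0.40 ± 0.10 (adjusted p = 0.00531). ATP5H was higher under mock (0.65 ± 0.11, adjusted p = 0.000202), at 168, 205 and 197 against 114, 127 and 121 FPKM, and was not called under salinomycin (0.16 ± 0.11, adjusted p = 0.221). The catalytic ATP5A1 was higher in both, by 0.38 ± 0.06 and 0.27 ± 0.06 (adjusted p = 0.000153 and 0.00271). ATP5B was higher under mock (0.30 ± 0.07, adjusted p = 0.00282) and at 0.17 ± 0.07 under salinomycin (adjusted p = 0.0581). ATP5G1, which codes for the ring of c subunits in the membrane, passed under salinomycin only (0.26 ± 0.08, adjusted p = 0.0115; mock 0.16 ± 0.08, adjusted p = 0.0895). Its call was lost with the length trend removed and without salinomycin HMLE-Twist replicate 1 or salinomycin HMLE-pBp replicate 2.

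In complex III the members split. UQCRB read 47.1, 48.9 and 50.2 FPKM in mock HMLE-Twist and 21.2, 18.4 and 21.4 in mock HMLE-pBp (1.22 ± 0.08, adjusted p = 4.13e-08), and was higher under salinomycin too (0.89 ± 0.08, adjusted p = 1.05e-06). UQCRQ, another small subunit, went the other way, at 47.2, 62.4 and 71.6 against 86.8, 90.8 and 106 FPKM in mock cells (-0.65 ± 0.13, adjusted p = 0.000795). It was also lower under salinomycin (-0.40 ± 0.13, adjusted p = 0.0196), a call lost without 3 of the 12 libraries. The core protein UQCRC1 (0.09 ± 0.10, adjusted p = 0.457) and CYC1 (-0.01 ± 0.08, adjusted p = 0.876) were not called in mock cells. In complex II SDHD was higher in HMLE-Twist under both treatments (0.44 ± 0.07 and 0.24 ± 0.07, adjusted p = 0.000155 and 0.0132) and SDHB lower (-0.20 ± 0.08 and -0.37 ± 0.08, adjusted p = 0.0398 and 0.00139). With the length trend removed SDHD under salinomycin was at 0.14 (adjusted p = 0.224). The mock call of SDHB was lost without 6 of the 12 libraries, under TMM and TPM scaling, and in the fit of those 2 groups alone. SDHA did not pass in mock cells (0.06 ± 0.09, adjusted p = 0.573) nor under salinomycin (0.21 ± 0.09, adjusted p = 0.0528).

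The other genes of oxidative metabolism were taken as lists. Of 29 other tested subunits of the 5 complexes, 5 fell with salinomycin in HMLE-Twist and 0 rose, a share near the 13.5% of all genes called lower. They included NDUFA12 (-0.47 ± 0.07, adjusted p = 0.000445) and NDUFB5 (-0.46 ± 0.09, adjusted p = 0.00346) of complex I, whose responses also differed between lines (-0.51 and -0.50, adjusted p = 0.0062 and 0.027). NDUFC2 of complex I (-0.42, adjusted p = 0.0035) and ATP5G3, a gene for the c subunit (-0.40, adjusted p = 0.0018), fell in HMLE-Twist as well. In HMLE-pBp 2 rose and 1 fell, with COX7A2L, which joins complexes III and IV, at 0.52 ± 0.13 (adjusted p = 0.017). Between the lines 8 of the 29 were higher and 5 lower in HMLE-Twist under mock, and 6 and 5 under salinomycin. Over all genes tested the shares were 36.1% and 37.2% under mock, and 31.4% and 32% under salinomycin. ATP5G2, another gene for the c subunit, was higher in mock HMLE-Twist by 1.58 ± 0.10 (adjusted p = 3.86e-08). COX7A2L was higher in HMLE-Twist under mock (0.82 ± 0.13, adjusted p = 9.42e-05) and under salinomycin (0.63 ± 0.13, adjusted p = 0.000982). NDUFA4L2, a paralog of NDUFA4, was barely expressed and rose in HMLE-Twist from 0.472 ± 0.175 to 1.39 ± 0.234 FPKM (0.70 ± 0.12, adjusted p = 0.00109). COX6B2, a testis isoform of complex IV, had a mean of 0.357 FPKM and was not tested.

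Over all genes tested 13.5% fell and 12.8% rose with salinomycin in HMLE-Twist, and 9.36% fell and 9.55% rose in HMLE-pBp. Of 46 tested assembly factors, which build the complexes, 16 fell and 1 rose with salinomycin in HMLE-Twist, with a median of -0.17. COX20 (-0.58 ± 0.09, adjusted p = 0.000624) and COX16 (-0.54 ± 0.09, adjusted p = 0.000903) serve complex IV, and SDHAF3 (-0.58 ± 0.11, adjusted p = 0.00257) serves complex II. ATPAF1, a chaperone for the head of ATP synthase, fell too (-0.50 ± 0.08, adjusted p = 0.00109), and it was higher in mock HMLE-Twist by 1.21 ± 0.08 (adjusted p = 5.33e-08). In HMLE-pBp 6 assembly factors fell and 0 rose. Of 18 genes of the citric acid cycle and pyruvate entry, 7 fell and 0 rose in HMLE-Twist, with a median of -0.21. In HMLE-pBp the median of this list was 0.04, with 9 of 18 differences positive. The largest falls in HMLE-Twist were in DLD, the shared E3 subunit of the dehydrogenase complexes (-0.52, adjusted p = 0.0017), and SUCLA2, a subunit of succinyl-CoA synthetase (-0.45, adjusted p = 0.00256). Citrate synthase, CS, went from 109 ± 17.7 to 80.2 ± 5.15 FPKM in HMLE-Twist (-0.43 ± 0.11, adjusted p = 0.0109). Of 14 genes for electron carriers and coenzyme Q synthesis, 3 fell and 1 rose in each line. COQ3, of coenzyme Q synthesis, fell most in HMLE-Twist (-0.56, adjusted p = 0.000828) and PDSS1, of the same pathway, in HMLE-pBp (-0.52, adjusted p = 0.00415), while COQ2 fell in both (-0.50 and -0.27, adjusted p = 0.00112 and 0.0408).

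Of 20 tested regulators of mitochondrial biogenesis and mitochondrial DNA expression, 3 rose and 3 fell with salinomycin in HMLE-Twist, and 0 rose and 3 fell in HMLE-pBp. Over all genes tested 12.8% rose and 13.5% fell in HMLE-Twist, and 9.55% rose and 9.36% fell in HMLE-pBp. The HMLE-Twist counts were near these shares. MYC, a transcription factor, rose in HMLE-Twist from 20.2 ± 2.55 to 62.5 ± 8.50 FPKM (1.58 ± 0.14, adjusted p = 2.26e-05) and fell in HMLE-pBp from 140.0 ± 21.6 to 96.1 ± 10.8 (-0.53 ± 0.14, adjusted p = 0.022). The PGC-1-related coactivator PPRC1 rose in HMLE-Twist (0.67 ± 0.11, adjusted p = 0.000964), while MTERF3, which acts on mitochondrial ribosomes and transcription (-0.69, adjusted p = 0.000716), and TEFM, a mitochondrial transcription elongation factor (-0.55, adjusted p = 0.00362), fell. Of the 3 called in HMLE-pBp, C10orf2, the mitochondrial DNA helicase, fell most (-0.65, adjusted p = 0.00343). PPARGC1B, the coactivator PGC-1 beta, fell in HMLE-pBp (-0.47 ± 0.10, adjusted p = 0.00849) and was lower in mock HMLE-Twist (-1.69 ± 0.10, adjusted p = 1.72e-08).

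Set beside the promoters shown above, 6 of the 16 members that fell with salinomycin in HMLE-Twist and have an entry held the NRF1 pattern. They were ATP5C1, SDHD, NDUFB4, ATP5O, NDUFA8 and NDUFA9. Of 24 tested members that were not called 2 held it, SDHA and UQCRC1. The YY1 pattern was in 4 of 16 and 2 of 24, the ETS pattern in 4 of 16 and 7 of 24, and CCAAT in 3 of 16 and 9 of 24. These counts are small and were not tested.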

How the data were processed

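The authors' deposited tables give FPKM per gene for the mock libraries and, under the same heading, regularised log2 values for the salinomycin libraries, which was read from the values. The submitters' processing notes name DESeq2 1.1.0 and hg19, while the aligner and annotation were not given in the sources. Per the labels' protocols, 750 ng of RNA went into stranded mRNA libraries sequenced in pairs of 75 cycles. The whole reads behind both kinds of value were recovered from their steps. Of the salinomycin values 98.3% in HMLE-Twist and 95.7% in HMLE-pBp lay within 0.1 read of a whole number. Among the genes with the most reads these shares were 64.2% and 39.8%. Mock values of genes over 100 reads lay within 0.00394 of a whole read. The mock reads were sought as whole numbers, so this closeness is no separate check. Of 12682 such genes with a reference length, 73.4% had a recovered length within 5% of it. Genes whose reads were settled only up to a multiple (599, COX5B among them) were left out.

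FPKM was rebuilt with median-of-ratios size factors over the 12 libraries. Genes with at least 1 FPKM in 3 or more libraries (11980) were tested on log2(FPKM + 1), with a pseudocount of 1, by limma 3.58.1 (lmFit, eBayes with trend, R 4.3.3) over all 4 groups, with Benjamini-Hochberg adjustment and a threshold of 0.05. A fold change on this scale understates that of low genes. In data simulated on 11623 genes, limma called 94% of 100 genes changed by 0.5 (log2) and 100% of 100 changed by 1. The simulation gave every gene the same fixed dispersion, with no length trend, replicate pairing or line difference. Only genes above a minimum level were changed. These shares hold for that setting and not for members with wider spread or smaller changes. Replicates are called biological by the labels without saying which cultures they came from, so p-values measure the spread between these samples.

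Same-numbered libraries within a line deviated together (correlations 0.45, 0.43 and 0.72 in HMLE-Twist, 0.54, 0.23 and 0.60 in HMLE-pBp). Across lines replicates 1 to 3 had correlations of 0.26, 0.07 and 0.57 under mock and 0.28, 0.04 and 0.60 under salinomycin. In the fits with a block within each line, the numbers were taken to pair mock and salinomycin libraries. The reported fit has no block, so its p-values and counts leave this pairing out. Members and gene lists were chosen with earlier results of these data known. List genes named in the text were drawn from the up to 4 with the largest changes among those that passed in a contrast, and tissue isoforms with reads were named in any case. Promoters are from RefSeq (GRCh38.p14). A result of the citric acid cycle list is not reported here.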

Additional observations from a re-analysis of the deposited data

Results flagged for a closer look

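For 4 of 48 members the response to salinomycin differed between the lines by the test of the difference itself (limma, adjusted over all genes tested). All 4 were more negative in HMLE-Twist, a share near the 6.59% of all genes tested that were. Another 6.95% of all genes were more positive. The difference, HMLE-Twist minus HMLE-pBp on the log2 scale, was -0.60 for NDUFS4, -0.38 for NDUFA6, -0.36 for NDUFV2 and -0.33 for ATP5F1. Leaving out 1 of the 12 libraries at a time, NDUFS4 kept its call in 7 cases, ATP5F1 in 4, NDUFV2 in 2 and NDUFA6 in 1.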

How the results depend on the processing

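The reported fit counts 3158 genes and 17 lower members in HMLE-Twist, 2265 and 3 in HMLE-pBp, and 1623 and 4 for the difference of responses. With the replicate number as a block over all libraries, 4013 genes, 8 lower and 2 higher members were called in HMLE-pBp, and 3498 genes, 11 lower and 1 higher members for the difference. With the block within each line, chosen after seeing the data, the counts of genes were 4842 (HMLE-Twist), 4382 (HMLE-pBp) and 3890 (difference), with 10 lower and 2 higher members in HMLE-pBp and 12 lower for the difference. With the length trend removed, also chosen afterwards, 1 member was lower in HMLE-pBp. With both, 5137, 4590 and 4254 genes were called, 3 members were higher in HMLE-pBp, and for the difference 14 were lower and 1 higher. TMM scaling gave 1 higher member in HMLE-pBp, and TPM scaling 1 lower for the difference. The cause of these shifts was not tested.

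Leaving out 1 library at a time, lower members ran from 10 to 22 in HMLE-Twist, 0 to 7 in HMLE-pBp and 0 to 6 for the difference, and higher members in HMLE-pBp from 0 to 1. In HMLE-Twist the genes called ran from 2201 (without salinomycin HMLE-Twist replicate 3) to 3469 (without mock HMLE-Twist replicate 3). Genes called ran from 1143 (without mock HMLE-pBp replicate 3) to 3163 (without mock HMLE-Twist replicate 1) in HMLE-pBp, and for the difference from 778 (without mock HMLE-pBp replicate 3) to 2381 (without mock HMLE-Twist replicate 3). Of the members called, 10 of 17 in HMLE-Twist, 0 of 3 in HMLE-pBp, 0 of 4 for the difference, 23 of 29 between lines under mock and 14 of 23 under salinomycin kept their call under every alternative run. The 10 in HMLE-Twist were NDUFA9, NDUFB3, NDUFB4, NDUFB6, NDUFV2, SDHD, UQCRB, ATP5C1, ATP5F1 and ATP5O. No called member changed sign under any alternative. Over all genes called in HMLE-Twist, 55.9% were higher under TPM scaling (1695 higher, 1337 lower), where the reported fit had 1537 higher and 1621 lower. The planned count tests (edgeR, DESeq2) were not run, since the deposited values are FPKM and log2.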
